A study of Mus musculus with 6 samples.

Results

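The genes described here are the enzymes that remove phosphate from histidine (Phpt1, Lhpp and Pgam5), the nucleoside diphosphate kinase genes Nme1, Nme2, Nme3, Nme4 and Nme6, and Gnb1, whose protein carries a phosphohistidine. They were chosen by symbol, and 9 of 9 have an entry among the 55222 of the deposited table. The study sequenced RNA of C57BL/6 mouse liver, with 2 libraries for each of 3 groups. Normal livers had neither toxin nor virus. AAV-Ctrl livers came from mice given carbon tetrachloride (CCl4), a solvent that liver cytochromes turn into a toxic radical, and a control adeno-associated virus (AAV). AAV-shPhpt1 livers, called hairpin livers below, came from mice given CCl4 and a virus that carries a short hairpin RNA against Phpt1. The CCl4, in olive oil, was given by intraperitoneal injection at 12.5 ml/kg, 2 times per week, the virus by vein after 1 week, and livers were collected 48 h after the last dose. The labels state 5 mice per virus group. They do not say which animals gave the libraries, nor sex or age, nor which promoter drives the hairpin and in which cells. Since normal livers lacked the toxin and the virus alike, the effects of CCl4 and of AAV cannot be told apart in a comparison with them.

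Phosphate on histidine is bound through nitrogen and is lost in acid, which makes it harder to study than phosphate on serine, threonine or tyrosine. NME proteins pass phosphate between nucleotides through a histidine of their own. NME1 and NME2 can also hand it to histidines of other proteins, among them the G protein beta subunit GNB1, and PHPT1 takes it off again. PHPT1 also opposes NME2 on the potassium channel KCNN4. LHPP is described as a suppressor of liver tumours in mice, and PGAM5 sits at mitochondria, where it also removes phosphate from serine and threonine.

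The coding sequence around the active-site histidine is shown for Phpt1 and Pgam5 and for 3 kinases, and that around the phosphorylated histidine for Gnb1. Each has 57 bases of the coding strand, 5′ to 3′, from GENCODE M21 transcripts (GRCm38), with the histidine codon in capitals. Codons are counted from 1 at the start codon of the longest annotated coding transcript.
Phpt1, codon 52, minus strand, chr2:25574287-25574713 across an intron: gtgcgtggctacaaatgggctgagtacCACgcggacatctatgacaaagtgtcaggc
Pgam5, codon 104, minus strand, chr5:110267115-110267171: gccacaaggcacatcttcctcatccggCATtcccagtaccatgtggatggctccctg
Nme1, codon 118, minus strand, chr11:93959474-93960684 across an intron: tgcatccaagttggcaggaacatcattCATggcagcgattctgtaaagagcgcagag
Nme2, codon 118, minus strand, chr11:93950007-93951916 across an intron: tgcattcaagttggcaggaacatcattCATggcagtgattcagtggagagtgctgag
Nme6, codon 129, plus strand, chr9:109842051-109842471 across an intron: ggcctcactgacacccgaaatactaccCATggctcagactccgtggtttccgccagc
Gnb1, codon 266, plus strand, chr4:155555084-155555140: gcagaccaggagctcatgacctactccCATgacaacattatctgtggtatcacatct
Nme1 and Nme2 differed at 7 of the 57 bases shown. Over their whole coding sequences 80.3% of 456 bases were identical, and 88.2% of 152 codons named the same amino acid. Nme6 was the most distant of the 5 kinases, with the same amino acid as Nme1 at 32.2% of 152 aligned codons. Reads from stretches that are identical between Nme1 and Nme2 cannot be placed with certainty.

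For 4 of the 9 genes, exonic bases are shared with another annotated gene on the same strand. Phpt1 (ENSMUSG00000036504, chromosome 2, 25573430 to 25575224, minus strand) shares 418 of its 1074 exonic bases with Mamdc4, which encodes a membrane protein, and these hold all 372 coding bases, counted without the stop codon. All 57 bases shown above for Phpt1 lie in Mamdc4 exons. Nme2 (ENSMUSG00000020857, chromosome 11, 93949814 to 93956259, minus strand) shares 573 of 1171 exonic bases, with all 456 coding bases, with Gm20390. Gm20390 is a predicted gene whose exons run through Nme1 and Nme2 alike. Nme1 (ENSMUSG00000037601, chromosome 11, 93956979 to 93968521, minus strand) shares 418 of 3342 exonic bases with Gm20390, and these hold 341 of its 511 coding bases. Nme3 (ENSMUSG00000073435, chromosome 17, 24896500 to 24897522, plus strand) shares 763 of 876 with Mrps34, a mitochondrial ribosomal protein gene. Counting genes of the opposite strand as well, 873 of its 876 exonic bases are shared.

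**Figure D1:**
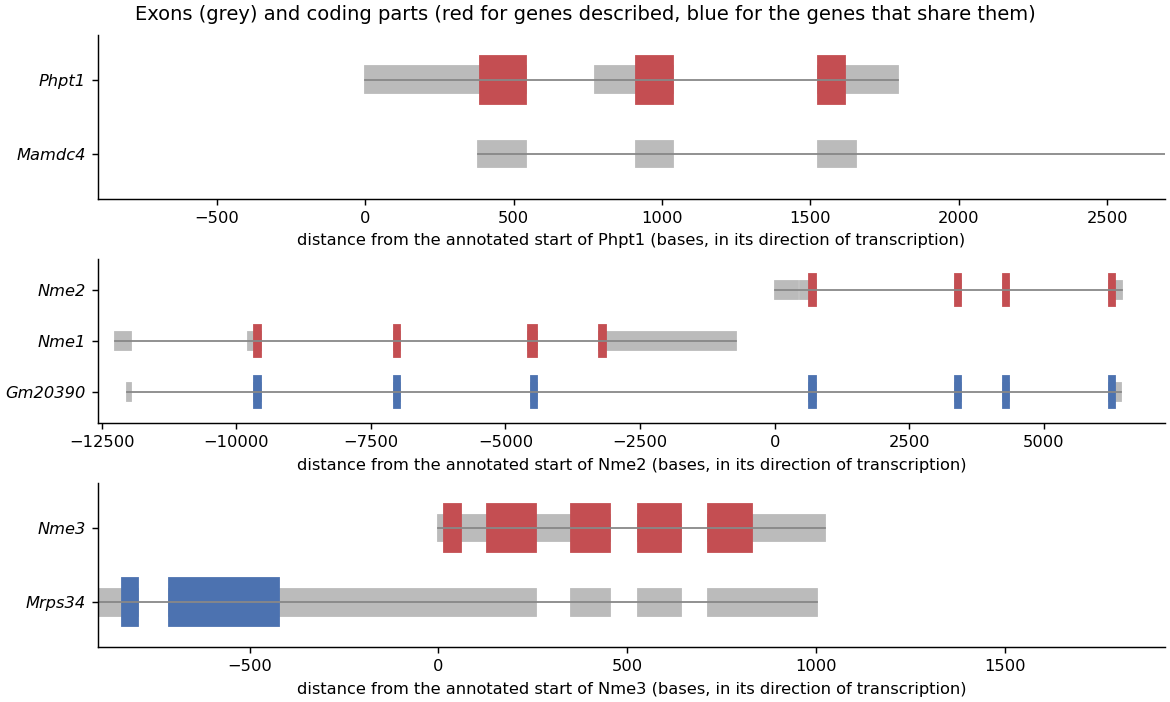
Exons (grey, low) and coding parts (coloured, tall) of Phpt1, Nme2 with Nme1, and Nme3, each above the gene of the same strand that shares its bases, by distance in bases from the annotated start of Phpt1, Nme2 or Nme3. All coding parts of Phpt1, Nme2 and Nme3 lie over exons of the other gene, while the long last exon of Nme1 does not.

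Across the table, genes with most or all of their exonic bases shared were often listed at 0. Of the protein-coding genes matched to the annotation, 133 have all their exonic bases inside exons of other genes of the same strand, and 133 of these 133 were listed at 0 in all 6 libraries. Among the 20177 genes with no shared base, 23.4% were listed at 0 and 51.0% averaged at least 1 FPKM (fragments by transcript length and library total, the unit in which the deposited values were read). Among the 144 genes with over 75% but not all bases shared, 50.7% were listed at 0 and 5.56% averaged at least 1 FPKM. Nme3 lies in this class. Phpt1 and Nme2 lie among the 182 genes with 25% to 50% shared, of which 13.2% were listed at 0, fewer than with no shared base, and 40.7% averaged at least 1 FPKM, also fewer. The median of that class was 0.431 FPKM, beside 1.16 with no shared base. The place of coding bases within the shared part was not compared across genes. Gm20390, with 991 of 991 bases shared, was listed at 0 in every library. Whether the values of Phpt1, Nme2, Nme3 and Nme1 hold all reads of these genes was not tested. How the authors treated reads in shared exons is not given in the sources used here.

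**Figure D2:**
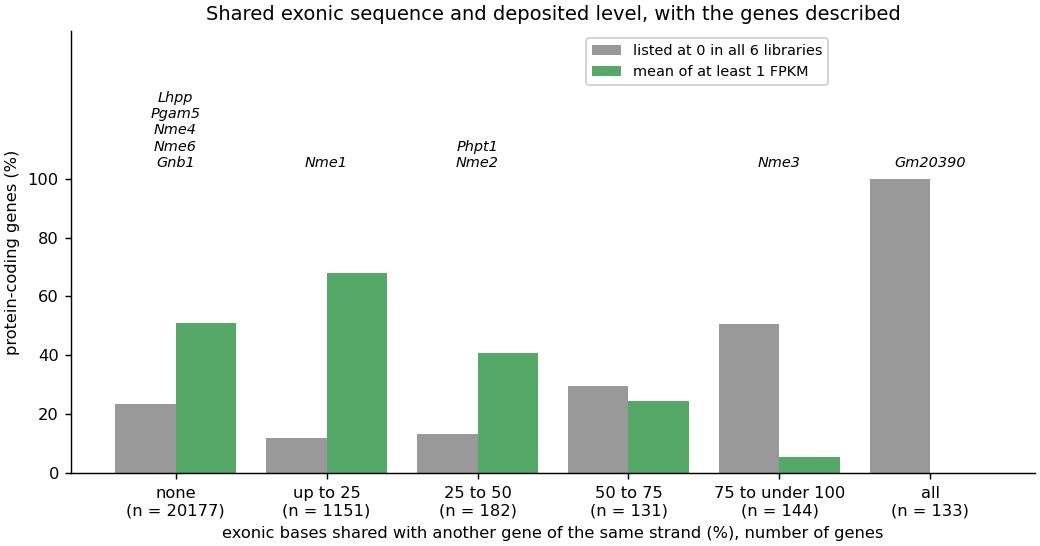
Share of protein-coding genes (percent, vertical axis) listed at 0 in all 6 libraries (grey) and averaging at least 1 FPKM (green), by the percentage of their exonic bases shared with another gene of the same strand, with the number of genes in each class. Names mark where the 9 genes and Gm20390 fall. The share listed at 0 is 23.4% with no shared base, 13.2% in the class of Phpt1 and Nme2, and 100% when all bases are shared.

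Depth was similar in all libraries. Multiplying a value by the gene's mean annotated transcript length gave whole multiples of 1 step per library, which imply 21488829 to 24188030 reads per library. Of the 9 genes, 7 gave whole reads in all 6 libraries. Nme4 did not with this annotation's length, and Nme3 was at 0. Replicates agreed least in hairpin livers, with 9.48% of the genes tested more than 2-fold apart (on the log2(FPKM + 1) scale), against 3.60% in normal livers and 2.72% in AAV-Ctrl. The albumin gene Alb, which marks hepatocytes, lay between 72939 and 129572 FPKM, so all libraries carry liver RNA.

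Across the 9 genes, levels in normal liver ranged from 45.4 ± 1.33 FPKM (SD, n = 2) for Lhpp to 0 for Nme3. Gnb1 followed at 33.5 ± 0.510 and Nme6 at 16.3 ± 0.779 FPKM, each apart from its neighbours in the order. Nme1 (4.52 ± 0.887) and Pgam5 (3.82 ± 0.290) overlapped. Nme4 averaged 1.81 ± 0.669 FPKM, Nme2 0.458 ± 0.106 and Phpt1 0.222 ± 0.0168. All coding bases of Nme2, Phpt1 and Nme3 lie in exons of another gene of the same strand. Whether their low values hold all their reads was not tested. In AAV-Ctrl livers the order changed at the top, with Gnb1 at 63.7 ± 5.34 and Nme6 at 58.8 ± 9.53 FPKM, which overlapped, above Lhpp at 10.8 ± 5.47 and Nme1 at 10.1 ± 0.888, which also overlapped. In AAV-shPhpt1 livers Gnb1 (55.4 ± 6.11) and Nme6 (47.3 ± 6.76) again overlapped, and Lhpp, at 5.13 ± 4.70 FPKM, overlapped with Nme1 (8.12 ± 0.634) and with Pgam5 (3.78 ± 0.202). FPKM divides by mean transcript length, which is 676 bases over 15 annotated transcripts for Nme6 and 1802 over 9 for Gnb1, so the order of levels depends on these lengths.

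**Figure D3:**
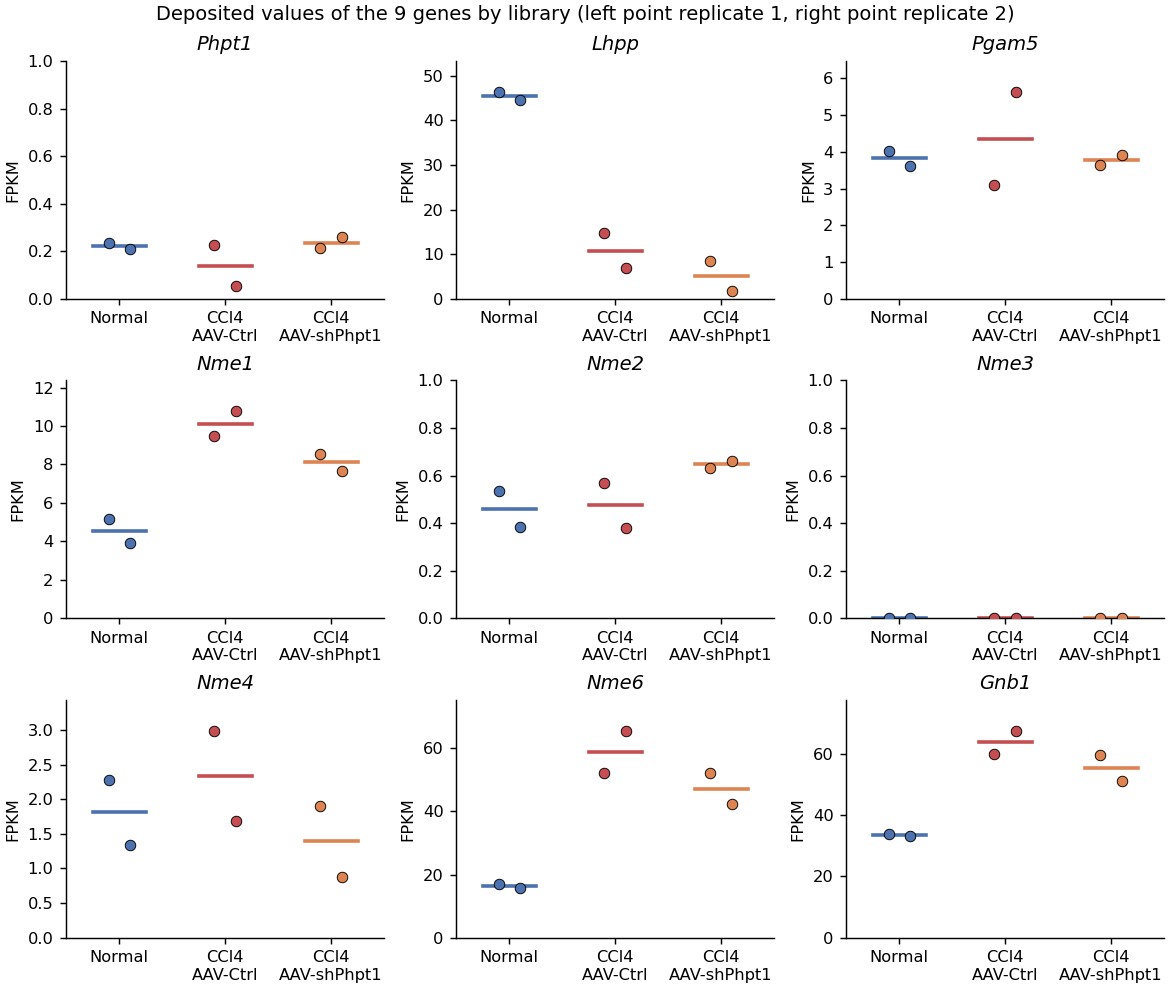
FPKM (vertical axes, from 0, each gene with its own scale) of the 9 genes in each library, with replicate 1 on the left and replicate 2 on the right of each group and a line at the group mean. Lhpp lies between 44.4 and 46.3 FPKM in normal livers and at or below 14.6 in every liver given CCl4, while Nme6, Gnb1 and Nme1 lie higher in every liver given CCl4 than in normal livers.

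Livers given CCl4 and the control virus had more Nme6, Nme1 and Gnb1 transcript than normal livers. Of the 9 genes, 6 averaged 1 FPKM or more in some group and were tested, and 3 of these rose. None fell, and Lhpp lay just outside the threshold. Tests were made with limma on log2(FPKM + 1), over 13517 genes, at a Benjamini-Hochberg adjusted p under 0.05. Of all genes tested, 18.2% rose and 2.28% fell. The 6 genes had a median difference of 0.57 on that scale, beside 0.35 over all genes tested. Differences and calls below are not corrected for this shift unless stated. In bulk tissue, fewer cells of a type and less RNA per cell cannot be told apart.

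Among the phosphatases, Lhpp (ENSMUSG00000030946, chromosome 7, 132610638 to 132706420, plus strand) lay in separate ranges in normal and CCl4 livers. It measured 46.3 and 44.4 FPKM in normal (1067 and 1140 reads), 14.6 and 6.90 in AAV-Ctrl (347 and 178 reads) and 8.46 and 1.81 in hairpin livers (214 and 47 reads). Both normal libraries lay above all 4 libraries given CCl4, and AAV-shPhpt1 replicate 2 was the lowest. The AAV-Ctrl mean was 4.21-fold below normal, with a log2 difference of -2.06 (SE 0.59, 95% interval -3.48 to -0.64) and adjusted p = 0.0531 (limma). After median centring this became -2.51 with adjusted p = 0.0435, and limma-voom, the replicate block and leaving out either hairpin library also gave a call (adjusted p 0.0175 to 0.0316). A pseudocount of 0.1 (0.0687), no filter (0.132) and quantile normalization (0.0516) gave none. Without AAV-Ctrl replicate 2 the difference was -1.57 (adjusted p = 0.270), without AAV-Ctrl replicate 1 it was -2.55 (0.111), and without either normal library adjusted p was 0.167 and 0.200.

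Pgam5 (ENSMUSG00000029500, chromosome 5, 110259130 to 110269913, minus strand) showed no difference beyond its spread. It measured 4.03 and 3.62 FPKM in normal, 3.10 and 5.63 in AAV-Ctrl and 3.63 and 3.92 in hairpin livers. The AAV-Ctrl libraries lay on either side of all others. The log2 difference from normal was 0.11 (SE 0.27, 95% interval -0.53 to 0.76, adjusted p = 0.767). It turned negative, -0.34, after median centring. On the opposite strand the annotated RNA Gm26718 covers 1378 of its 2373 exonic bases. The TruSeq kit named in the labels is not stated there to mark strand, so reads of the pair may not be separable.

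Phpt1, the target of the hairpin, held 4 and 4 reads in normal, 4 and 1 in AAV-Ctrl and 4 and 5 in hairpin livers. In FPKM these were 0.234 and 0.210, 0.227 and 0.0521, and 0.213 and 0.259. The groups overlapped, and AAV-Ctrl replicate 2 was the lowest library. Relative to library totals hairpin livers had 1.74 times the AAV-Ctrl level, with an exact 95% interval of 0.523 to 6.61 for counting error only, and 4.53 without AAV-Ctrl replicate 1. A lowering of Phpt1 was not detectable at these read counts. Which bases of the gene these reads came from cannot be seen in the values, and the 656 exonic bases outside Mamdc4 hold no coding base. Mamdc4 itself held 29 and 43 reads in normal, 32 and 63 in AAV-Ctrl and 24 and 54 in hairpin livers, with overlapping groups. The target gene thus gave no check of the hairpin label.

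Of the kinases, Nme6 (ENSMUSG00000032478, chromosome 9, 109832749 to 109843116, plus strand), a member of the NME family found at mitochondria, had the largest rise of the 6 genes. Its values were 16.9 and 15.8 FPKM in normal, 52.1 and 65.6 in AAV-Ctrl and 52.1 and 42.5 in hairpin livers. All 4 libraries given CCl4 were above both normal ones. AAV-Ctrl was 3.61-fold above normal, with a log2 difference of 1.78 (SE 0.17, 95% interval 1.37 to 2.19) and adjusted p = 0.00884 (limma). This exceeds the median of all genes by 1.43. No normal or AAV-Ctrl library could be spared, since adjusted p was between 0.0568 and 0.107 when any 1 of these 4 was left out.

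Nme1, the kinase first named as a suppressor of metastasis, measured 5.14 and 3.89 FPKM in normal (152 and 128 reads), 9.50 and 10.8 in AAV-Ctrl (289 and 356 reads) and 8.56 and 7.67 in hairpin livers (278 and 255 reads). Normal livers were lowest and AAV-Ctrl livers highest, with no overlap between the 3 groups. AAV-Ctrl was 2.24-fold above normal, with a log2 difference of 1.02 (SE 0.19) and adjusted p = 0.0243 (limma). Median centring gave 0.57 with adjusted p = 0.110, and leaving out any 1 of the 4 libraries gave adjusted p between 0.0899 and 0.179, so the call did not survive these.

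Nme2, the partner of Nme1 in mixed hexamers, held 10 and 8 reads in normal, 11 and 8 in AAV-Ctrl and 13 and 14 in hairpin livers. As FPKM these were 0.533 and 0.383, 0.570 and 0.381, and 0.631 and 0.663. Both AAV-shPhpt1 values lay above the other 4, at counts too low for the filter of the test. Without the filter the log2 difference from AAV-Ctrl was 0.16 (SE 0.15, adjusted p = 0.840, limma).

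Nme3 was listed at 0 in all 6 libraries. Mrps34, named for its overlap after the values were seen, lay between 14.6 and 20.2 FPKM. Nme4 (ENSMUSG00000024177, chromosome 17, 26091734 to 26095602, minus strand), a kinase of mitochondria, measured 2.28 and 1.34 FPKM in normal, 2.99 and 1.68 in AAV-Ctrl and 1.90 and 0.882 in hairpin livers. The 3 groups overlapped. In AAV-Ctrl against normal the log2 difference was 0.24 (SE 0.34, 95% interval -0.60 to 1.08, adjusted p = 0.616), and -0.21 after median centring.

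Gnb1 (ENSMUSG00000029064, chromosome 4, 155491361 to 155559269, plus strand) encodes the beta subunit that forms a fixed pair with a gamma subunit in G proteins. It measured 33.9 and 33.2 FPKM in normal (1313 and 1431 reads), 60.0 and 67.5 in AAV-Ctrl (2390 and 2928 reads) and 59.7 and 51.1 in hairpin livers (2540 and 2226 reads). All 4 libraries given CCl4 lay above both normal ones. The AAV-Ctrl mean was 1.90-fold above normal, with a log2 difference of 0.90 (SE 0.14, 95% interval 0.57 to 1.24) and adjusted p = 0.0176 (limma). Median centring gave 0.45 with adjusted p = 0.0880, and leaving out any 1 of the 4 libraries gave adjusted p between 0.0689 and 0.161.

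Counted by separation of the groups, 3 of the 6 genes tested (Nme1, Nme6 and Gnb1) had both AAV-Ctrl libraries above both normal ones, where 60.0% of all genes tested did. None of the genes below the filter did. Lhpp alone of the 9 had both below, where 12.5% of all genes did, and 72.5% of all genes were separate in either direction. Separation upward was thus common among the genes tested.

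**Figure D4:**
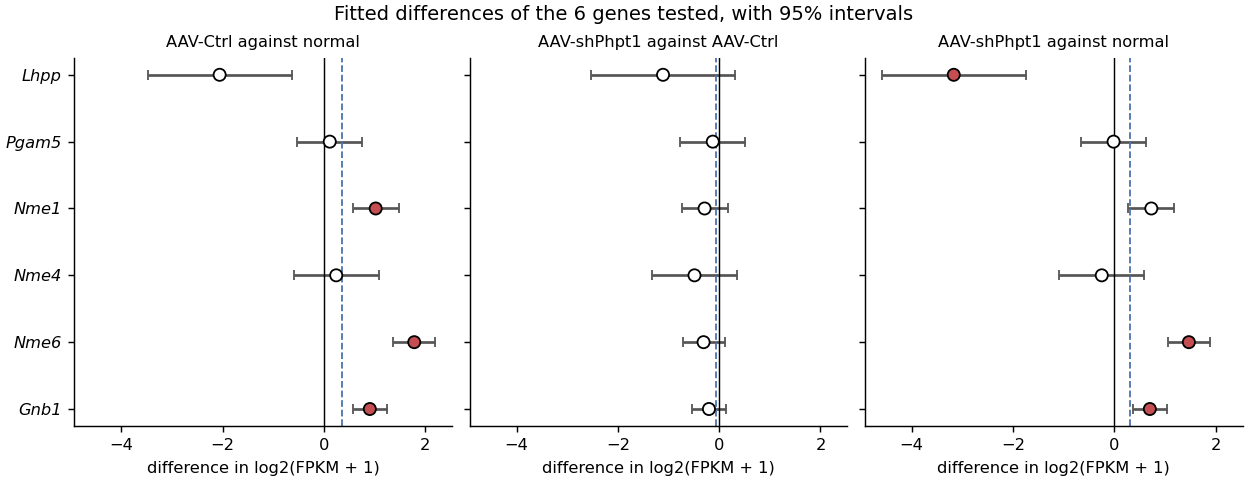
Difference in log2(FPKM + 1) (horizontal axes) with its 95% interval for the 6 genes tested, in each of the 3 comparisons; filled points passed an adjusted p under 0.05 and the dashed line is the median of all genes tested. Nme6, Nme1 and Gnb1 passed in AAV-Ctrl against normal, no gene passed in AAV-shPhpt1 against AAV-Ctrl, and Nme6, Gnb1 and Lhpp passed in AAV-shPhpt1 against normal.

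Livers given the hairpin and livers given the control virus, both under CCl4, gave no call in any of the 6 genes tested. All 6 genes tested had a negative difference, with a median of -0.30 beside -0.07 over all genes, and the smallest adjusted p was 0.676 (limma). Of all 13517 genes 0% were called, with 1146 at an unadjusted p under 0.05 and 0 by limma-voom on recovered reads. Gnb1, the substrate, had a difference of -0.20 (SE 0.14, 95% interval -0.54 to 0.13). Nme1 had -0.29 (95% interval -0.74 to 0.17) and Nme6 -0.31 (95% interval -0.72 to 0.11). These 3 genes had both hairpin libraries below both AAV-Ctrl libraries, as 26.2% of all genes did, with 38.0% separate in either direction. For Gnb1 the gap was 59.7 against 60.0 FPKM at its narrowest, and for Nme6 both nearest values round to 52.1. Nme2, below the filter, was the only one of the 9 with both hairpin libraries above. The share among the genes tested, 11.8%, does not cover genes below the filter.

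Lhpp had the largest and least certain difference, -1.11 (SE 0.59, 95% interval -2.53 to 0.31, adjusted p = 0.676). The groups overlapped, since AAV-shPhpt1 replicate 1 (8.46 FPKM) lay above AAV-Ctrl replicate 2 (6.90 FPKM). Without AAV-shPhpt1 replicate 1 the difference was -1.98 (adjusted p = 0.0920), and without replicate 2 it was -0.23 (adjusted p = 0.952), so 1 library set its size. Nme4 had -0.49 (95% interval -1.32 to 0.35) and Pgam5 -0.13 (95% interval -0.77 to 0.52).

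In hairpin livers against normal livers, which differ by CCl4, virus and hairpin together, Nme6 and Gnb1 rose and Lhpp fell. Of all genes 4.34% were called, 3.26% higher and 1.07% lower, in this comparison, which shares the normal libraries with the one above. Nme6 was 2.90-fold higher (log2 difference 1.47, SE 0.17, adjusted p = 0.0204, limma). Gnb1 was 1.65-fold higher (0.70, SE 0.14, adjusted p = 0.0484), and after median centring the difference was 0.35 (adjusted p = 0.211). Lhpp was 8.84-fold lower (-3.17, SE 0.59, 95% interval -4.59 to -1.75, adjusted p = 0.0443), and limma-voom on recovered reads gave -3.54 with adjusted p = 0.0533. The Lhpp call was also lost with no filter (0.130) and without any 1 normal or AAV-Ctrl library (adjusted p 0.0871 to 0.202), and the difference was -4.04 without hairpin replicate 1 and -2.29 without hairpin replicate 2. Nme1, with 0.73 (SE 0.19), did not pass (adjusted p = 0.0747). Both hairpin libraries lay above both normal ones for Nme1, Nme6 and Gnb1, as for 52.2% of all genes tested. They lay below for Lhpp, as for 12.5%, with 64.6% separate in either direction. Nme2, below the filter, also had both above. Leaving out any 1 library other than AAV-Ctrl replicate 2 and hairpin replicate 2 gave adjusted p between 0.0564 and 0.165 for Nme6. For Gnb1 every omission but that of hairpin replicate 2 gave 0.0925 or more.

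Summed levels of the marker lists other than hepatocyte and endothelial were higher in every liver given CCl4 than in normal livers. The lists were chosen with earlier results known. The summed level of 8 macrophage genes was 84.1 to 102.8 FPKM in normal livers, 785.2 to 876.1 in AAV-Ctrl livers, and 534.0 and 196.3 in hairpin replicates 1 and 2. The defining marker Adgre1 stood at 5.19 and 3.72 FPKM in normal and 58.6 and 46.9 in AAV-Ctrl livers. It was 18.9 FPKM in AAV-shPhpt1 replicate 1 and 2.47 in replicate 2, the latter below both normal livers. Stellate cell and myofibroblast genes (8, with Col1a1) summed to 25.9 to 27.3 FPKM in normal livers, 348.9 to 386.6 in AAV-Ctrl livers, and 161.0 and 56.8 in hairpin livers. In AAV-Ctrl against normal, 6 of 8 macrophage, 7 of 8 stellate, 2 of 6 endothelial and 2 of 4 bile duct genes rose. Of lymphocyte genes 0 of 5 rose and of proliferation genes 1 of 6, where 18.2% of all genes tested rose. Of hepatocyte genes 2 of 8 fell, where 2.28% of all genes tested fell. Summed levels across the 6 libraries were 11.4 to 49.8 FPKM for endothelial, 20.1 to 120.1 for bile duct, 2.60 to 17.1 for lymphocyte and 29.7 to 141.4 for proliferation genes. The endothelial sum of AAV-shPhpt1 replicate 2, 12.9 FPKM, lay between those of the normal livers, 11.4 and 21.7. The part of these cells in the values of Lhpp, Nme6, Nme1 and Gnb1 was not tested. In AAV-shPhpt1 replicate 2 the macrophage sum was the nearest to normal of the 4 libraries given CCl4, while the bile duct sum was 93.1 FPKM, against 20.1 and 25.2 in normal livers. In that library Nme6 was at 42.5 FPKM, Gnb1 at 51.1 and Lhpp at its lowest. The hepatocyte sum (8 genes) was 101922 and 109406 FPKM in normal, 87116 and 88262 in AAV-Ctrl and 148638 and 104228 in hairpin livers. Alb makes up most of it, and the sum of the other 7 genes was 28983 and 31093 FPKM in normal, 14156 and 12941 in AAV-Ctrl and 19066 and 16751 in hairpin livers. Without Alb all 4 libraries given CCl4 lay below both normal ones. Both hairpin sums without Alb lay above both AAV-Ctrl ones, while the mean of Lhpp was lower in hairpin than in AAV-Ctrl livers. Alb itself measured 72939 and 78313 FPKM in normal, 72960 and 75321 in AAV-Ctrl and 129572 and 87477 in hairpin livers. None of the 6 defining markers was at 0. Krt19 of bile ducts and Cd3e of T cells stayed low, at 0.596 to 2.50 and 0.0679 to 1.96 FPKM. By group, Krt19 was at 1.52 and 0.596 FPKM in normal, 1.80 and 2.50 in AAV-Ctrl and 1.42 and 2.27 in hairpin livers. Its normal and hairpin values overlapped, and it was a small part of the bile duct sum.

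Genes whose values followed most closely were sought among 6209 with a mean of at least 10 FPKM, by Pearson correlation of log2(FPKM + 1) over the 6 libraries, as a description. The 6 libraries share the difference between normal and treated livers, so a high value does not show a specific link between genes. How common such values are was not counted. For Lhpp the nearest was Oat, ornithine aminotransferase, an enzyme of hepatocytes around the central vein (r = 0.998). Oat measured 552.9 and 465.8 FPKM in normal, 121.5 and 61.1 in AAV-Ctrl and 78.9 and 19.5 in hairpin livers. Its order of the 6 libraries was that of Lhpp, with AAV-shPhpt1 replicate 2 lowest. Next came Immp2l, a mitochondrial inner membrane peptidase (r = 0.989). For Nme6 these were Cd63, a tetraspanin of late endosomes (r = 0.999), and Ywhah, a 14-3-3 protein (r = 0.999). For Gnb1 they were Wdr1, which aids actin disassembly (r = 0.999), and Pitpna, a phosphatidylinositol carrier (r = 0.999). For Nme1 they were Clic4, an intracellular chloride channel protein (r = 0.999), and Eif2s1, the alpha subunit of initiation factor eIF2 (r = 0.997). For Nme4 they were Ggt6 (r = 0.988) and Bsg (r = 0.974), and for Pgam5 Nop9 (r = 0.952) and Snx15 (r = 0.942).

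The other G protein subunits were compared as the surroundings of Gnb1. Of 28 genes for alpha, beta and gamma subunits, 16 were tested and 4 rose in AAV-Ctrl against normal, where 18.2% of all genes rose, with a median difference of 0.58 beside 0.35 over all genes. None fell. Gngt2, a gamma subunit named from cone cells of the retina, measured 3.32 and 5.33 FPKM in normal, 24.3 and 22.8 in AAV-Ctrl and 20.9 and 5.50 in hairpin livers. AAV-shPhpt1 replicate 2 was thus close to normal and replicate 1 close to AAV-Ctrl. The rise in AAV-Ctrl over normal was 5.44-fold (log2 difference 2.23, SE 0.54, adjusted p = 0.0381, limma). Gna13, an alpha subunit, rose 2.18-fold to 14.8 FPKM (adjusted p = 0.0190). The inhibitory alpha subunits Gnai2 and Gnai3 rose 1.73-fold and 1.48-fold (adjusted p = 0.0448 and 0.0428). None of the 4 calls was kept after median centring or quantile normalization, and the 1 subunit called under each was Gna14, an alpha subunit of the Gq class, which was lower (log2 difference -1.26 and -1.24, adjusted p = 0.0343 and 0.0322). Gna14, named after its values were seen, measured 1.27 and 1.40 FPKM in normal, 0.321 and 0.344 in AAV-Ctrl and 0.138 and 0.183 in hairpin livers, and did not pass before that scaling (log2 difference -0.81, adjusted p = 0.0609). Gnb2, the other beta subunit of liver with a high level, measured 47.2 and 47.0 FPKM in normal livers and 52.0 and 57.5 in AAV-Ctrl, and did not pass (log2 difference 0.21, SE 0.13, adjusted p = 0.254). It is named beside Gnb1 after its values were seen, and the difference between the 2 changes was not tested.

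None of the 16 G protein subunits was called with the hairpin (limma, smallest adjusted p 0.674). The median difference was -0.26 beside -0.07 over all genes. Leaving out AAV-shPhpt1 replicate 1 gave 2 calls among them (Gngt2 and Gng2) and 377 in all genes, with the lone hairpin library assumed to vary like the other groups.

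Genes tied to histidine phosphorylation by their proteins were taken from a second list. It holds the other NME genes, phosphatases related to LHPP, substrates of histidine phosphorylation, and proteins that bind or are acted on by the enzymes. Of 24, 19 were tested and 6 rose in AAV-Ctrl against normal, where 18.2% of all genes rose, with a median of 0.39 beside 0.35 over all genes, and 0 of 19 were called with the hairpin (smallest adjusted p 0.644, limma). Prune1, a phosphoesterase that binds NME1, measured 8.37 and 6.13 FPKM in normal, 16.3 and 20.5 in AAV-Ctrl and 14.0 and 16.5 in hairpin livers. It rose 2.54-fold (log2 difference 1.24, SE 0.21, adjusted p = 0.0205). Kcnn4, the potassium channel switched on by NME2 and off by PHPT1, was low throughout. It measured 0.269 and 0.193 FPKM in normal, 1.26 and 1.78 in AAV-Ctrl and 0.808 and 0.693 in hairpin livers. The 3 groups did not overlap, and AAV-Ctrl was 6.56-fold above normal in FPKM. On the log2(FPKM + 1) scale this rise was 1.02 (SE 0.25), with adjusted p = 0.0393 (limma). With the hairpin the difference was -0.52, with adjusted p = 0.644.

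Trim27, a ubiquitin ligase that restrains KCNN4, rose 1.93-fold in AAV-Ctrl (adjusted p = 0.0271). The other 3 belong to the surroundings of PGAM5 at mitochondria and in the antioxidant response. Nfe2l2, which encodes NRF2, rose 1.62-fold (adjusted p = 0.0286), the mitophagy receptor gene Fundc1 1.83-fold (adjusted p = 0.0441) and the fission gene Dnm1l 1.59-fold (adjusted p = 0.0495). After median centring and after quantile normalization 0 of the 6 calls of this list were left.

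**Figure D5:**
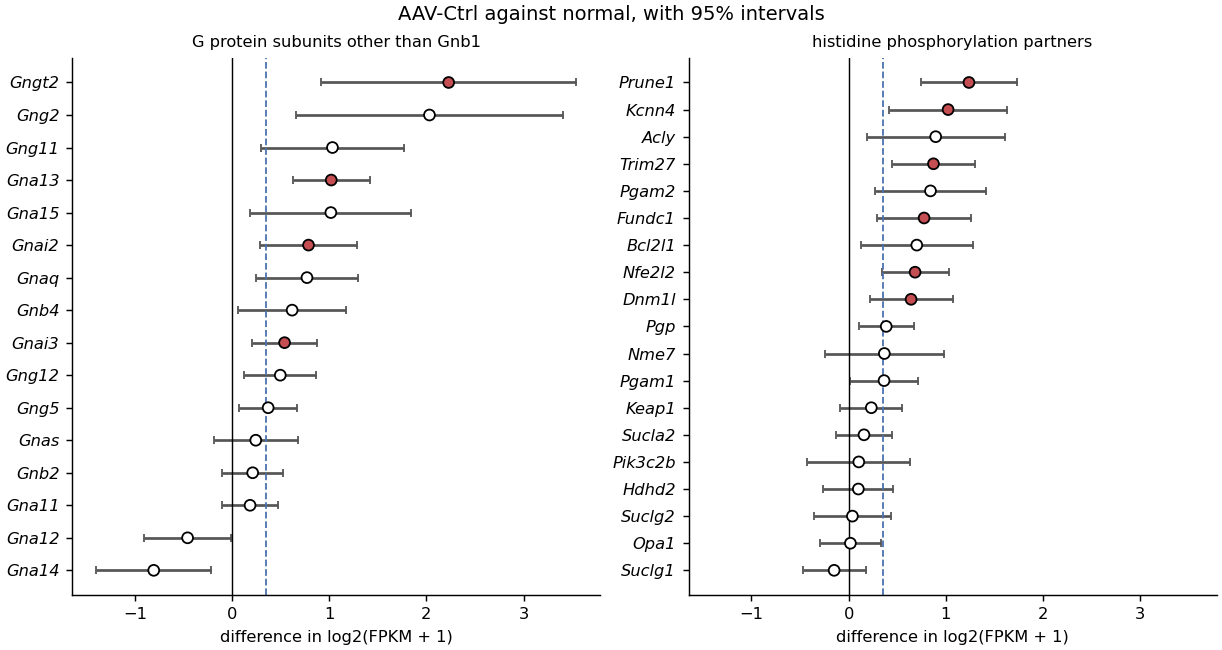
Difference in log2(FPKM + 1) between AAV-Ctrl and normal livers (horizontal axes) with its 95% interval for the 16 G protein subunits tested (left) and the 19 tested genes tied to histidine phosphorylation (right); filled points passed an adjusted p under 0.05 and the dashed line marks the median of all genes, 0.35. The 4 and 6 filled points all lie to the right of that line.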

How the data were processed

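Libraries were made from total RNA of liver with a TruSeq kit, per the labels. The authors deposited 1 table of values per gene, scaled by transcript length and library total before deposit as the values show, and read here as FPKM. Its header names no unit, but the values are whole multiples of 1 step per library once multiplied by mean transcript length in whole bases (within 0.05 reads for 96.5% to 96.8% of values under 1000 reads). The submitters' processing notes name Bowtie 0.12.2, mm8 and mm9, with no role. The counter and annotation used are not stated there or in the labels. Symbols came from the table, and coordinates, lengths and shared exons from GENCODE M21 (GRCm38), which matched 54409 of 54532 Ensembl identifiers. Genes with a group mean of at least 1 FPKM were fitted as log2(FPKM + 1) with limma 3.58.1 (trend) in R 4.3.3, 1 fit over 6 libraries, 3 residual and 3.21 prior degrees of freedom, two-sided, with Benjamini-Hochberg adjustment over all genes. Fold values are ratios of mean FPKM. The fit was tested on simulated data. Ratios of Phpt1 reads have exact conditional binomial intervals.

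Groups came from the titles, and all value columns were used. The labels do not say that libraries are separate animals, so p-values measure only the spread between samples, which may be technical, and with groups of 2 no permutation of samples could reach 0.05. The genes, lists and tests were chosen with earlier results of these data known. Named besides the 9 genes were list members past the threshold (up to 6 by size), the overlapping genes, and the 2 most correlated genes of each gene tested. Alternatives were another pseudocount (0.1), no filter, median centring, quantile normalization, a replicate block, limma-voom on recovered reads, and leaving out each library. The replicate numbers did not pair the libraries.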

Additional observations from a re-analysis of the deposited data

How the results depend on the processing

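With groups of 2 most calls need every library. In AAV-Ctrl against normal, calls over all genes (2772) went to 96 with no filter, 1295 after median centring (566 higher and 729 lower, against 2464 and 308) and 1092 after quantile normalization (632 and 460), and ranged from 6 to 3739 without 1 library. Of the 9 genes 3 were called, 1 (Nme6) with no filter, and 0 to 4 without 1 library, with 0 when any normal or AAV-Ctrl library was left out. G protein subunits (4 called) gave 0 with no filter, 1 after median centring and 1 after quantile normalization (Gna14, lower, none of the 4), and 0 to 9 without 1 library. Histidine phosphorylation partners (6 called) gave 0 with no filter, 0 after either scaling, and 0 to 7 without 1 library. In AAV-shPhpt1 against AAV-Ctrl, leaving out 1 library gave 0 to 377 calls over all genes, 5 of them without AAV-shPhpt1 replicate 2, 0 to 2 G protein subunits, and 0 of the 9 genes. In AAV-shPhpt1 against normal (586 calls) all genes gave 4 with no filter, 313 after median centring (128 higher and 185 lower, against 441 and 145), 236 after quantile normalization (114 and 122), 384 with the replicate block, 159 by limma-voom, and 9 to 2289 without 1 library. There the 9 genes (3 called) gave 0 with no filter, 1 by limma-voom and 0 to 3 without 1 library, G protein subunits 1 after median centring, 1 after quantile normalization and 0 to 8 without 1 library, and partners 2 with a pseudocount of 0.1 and 0 to 2 without 1 library. The cause of these shifts was not tested.

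Signs changed for Pgam5 and Nme4, neither of which was called. Pgam5 in AAV-Ctrl against normal became -0.34 after median centring and -0.43 after quantile normalization (-0.23 to 0.46 without 1 library). In AAV-shPhpt1 against AAV-Ctrl it became 0.015 after quantile normalization (-0.47 to 0.22 without 1 library), and against normal it was -0.36 and -0.42 under these scalings and -0.074 to 0.049 without 1 library. Nme4 in AAV-Ctrl against normal became -0.21 and -0.31 under these scalings (-0.046 to 0.53 without 1 library), and in AAV-shPhpt1 against normal it was -0.60 and -0.66 under them and -0.56 to 0.065 without 1 library. Lhpp, Nme1, Nme6 and Gnb1 kept their sign under all 12 alternatives in all 3 comparisons. No filter, the replicate block and leaving out a library of the group not compared cannot change a difference. Only the other alternatives could have changed a sign. The Phpt1 ratio of AAV-shPhpt1 to AAV-Ctrl was 2.22 relative to the reads of Gapdh, Actb and Ppia. Relative to library totals it was 1.04 to 4.53 without 1 library. The correlation across genes of the replicate 1 minus replicate 2 difference was 0.0727 for normal and AAV-Ctrl, 0.0406 for normal and AAV-shPhpt1 and 0.153 for AAV-Ctrl and AAV-shPhpt1, so the numbers were not taken to pair the libraries. The replicate block called 2162, 0 and 384 genes in the 3 comparisons, called Lhpp in AAV-Ctrl against normal (adjusted p = 0.0311) and lost Gnb1 in AAV-shPhpt1 against normal (adjusted p = 0.0713). Phpt1 and Nme2 held only 1 to 14 reads per library, and the reason for these low counts was not tested.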

Other observations

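Of the enzymes that carry phosphohistidine as a step of their own catalysis, those given here did not pass in AAV-Ctrl against normal. Acly, ATP citrate lyase, which makes acetyl-CoA for lipid synthesis, measured 92.5 and 131.3 FPKM in normal, 234.2 and 181.1 in AAV-Ctrl and 294.8 and 179.4 in hairpin livers. All 4 libraries given CCl4 lay above both normal ones, and AAV-Ctrl did not pass against normal (adjusted p = 0.0718, limma). Suclg1, a subunit of the succinyl-CoA ligase of mitochondria, measured 135.0 and 142.8 FPKM in normal, 129.1 and 121.2 in AAV-Ctrl and 152.4 and 131.0 in hairpin livers, with adjusted p = 0.422 in AAV-Ctrl against normal. Pgam1, the glycolytic phosphoglycerate mutase, measured 29.9 and 27.7 FPKM in normal livers and 39.3 and 35.6 in AAV-Ctrl (adjusted p = 0.111). Pgam2, another phosphoglycerate mutase, measured 0.388 and 0.547 FPKM in normal, 1.40 and 1.88 in AAV-Ctrl and 1.76 and 1.82 in hairpin livers. In AAV-Ctrl against normal its adjusted p was 0.0515 (limma). With a pseudocount of 0.1 it was 0.0428, which passed.

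Of the other NME genes, Nme7, whose protein belongs to the centrosome and cilia, was the one above the filter. It measured 3.62 and 3.44 FPKM in normal, 3.65 and 6.34 in AAV-Ctrl and 5.33 and 5.02 in hairpin livers, and did not pass in AAV-Ctrl against normal (adjusted p = 0.304, limma). Nme5, Nme8 and Nme9 stayed at or below 0.287 FPKM in every library. Trpv5, a calcium channel of the kidney that NME2 and PHPT1 act on, was listed at 0 in all 6 libraries. These genes were picked from the list after their values were seen.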
